A study of Homo sapiens with 9 samples.

Results

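MTF1, the zinc-sensing transcription factor of vertebrate cells, was followed with 7 genes known as its targets: the metallothioneins MT2A, MT1X, MT1F, MT1E, MT1G and MT1M and the zinc exporter SLC30A1. These 8 genes were found by symbol, each in 1 row, among the 57766 genes of the deposited table. The RNA was the polyadenylated fraction of HEK293 Freestyle, a suspension-grown and established cell line of human embryonic kidney origin, and the study asked how the line responds to Zn(II) starvation. The cells of all groups were kept at 1000000 cells/mL for at least 18 h, rinsed in buffered saline and plated at 4000000 cells/mL, and RNA was taken after 36 h. The full group received untreated Freestyle medium, the depleted group the same medium with Zn(II) removed, and the repleted group depleted medium with Zn(II) added back, with 3 libraries per group that the labels call biological triplicates. The labels also record a wash with 500 µM EDTA, a metal chelator, without saying clearly what was washed, and the zinc concentrations of the media are not given in the sources used here. A single line stands for all groups, so the 9 libraries carry no variation between donors.

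MTF1 binds zinc through its zinc fingers when free zinc rises, moves to the nucleus and binds metal response elements, short DNA motifs in the promoters of its targets. Metallothioneins are small cysteine-rich proteins that bind and buffer zinc and other metals, and SLC30A1 carries zinc out of the cell across the plasma membrane. Both classes are textbook readouts of the zinc available to a cell. In people most metallothionein genes lie side by side in a cluster on chromosome 16.

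The promoters of MT2A, MT1X and SLC30A1 are printed to show where matches to the core of the metal response element lie at targets whose RNA is described below. Promoter windows from RefSeq (GRCh38.p14), which run from 250 bases before to 50 bases after a transcription start, were at hand for 4 of the 8 members: MT2A, MT1X, SLC30A1 and MTF1. The 7-letter cores TGCACNC and TGCGCNC were searched on both strands, and matches on opposite strands that overlap would count separately. The 250 bases before the start lie at chr16:56608334-56608583 (plus strand) for MT2A, chr16:56682220-56682469 (plus strand) for MT1X and chr1:211579162-211579411 (minus strand) for SLC30A1. They are given 5′ to 3′ on the gene's strand, with each match in capitals, so a match on the other strand appears as its reverse complement.
MT2A: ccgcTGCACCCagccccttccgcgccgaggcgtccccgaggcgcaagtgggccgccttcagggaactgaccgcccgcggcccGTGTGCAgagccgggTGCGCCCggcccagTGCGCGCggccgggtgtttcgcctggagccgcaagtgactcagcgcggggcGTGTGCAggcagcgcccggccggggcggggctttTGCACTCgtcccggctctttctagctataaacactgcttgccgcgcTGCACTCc
MT1X: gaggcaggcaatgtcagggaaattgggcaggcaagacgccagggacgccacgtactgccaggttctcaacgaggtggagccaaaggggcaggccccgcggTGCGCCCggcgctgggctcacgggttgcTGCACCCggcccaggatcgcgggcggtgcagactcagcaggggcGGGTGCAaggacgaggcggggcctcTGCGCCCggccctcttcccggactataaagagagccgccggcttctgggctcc
SLC30A1: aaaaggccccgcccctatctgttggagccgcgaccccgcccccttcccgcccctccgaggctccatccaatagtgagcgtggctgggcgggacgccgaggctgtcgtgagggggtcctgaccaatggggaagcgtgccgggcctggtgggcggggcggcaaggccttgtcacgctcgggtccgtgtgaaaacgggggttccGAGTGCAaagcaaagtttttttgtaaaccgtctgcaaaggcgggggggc

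MT2A held 8 matches in its window, 7 of them before the start, and MT1X held 4, all before the start. SLC30A1 held 2, one before and one after the start, and the MTF1 window held 0. Of the 35116 promoter windows searched, 29.6% held at least 1 match, 8.6% at least 2, 0.601% at least 4 and 0.0199% at least 8. Before the start alone, 24.8% held at least 1 match, as SLC30A1 did, 0.37% at least 4 and 0.0313% at least 7. Promoters of metallothioneins with no RNA listed held matches too: MT1H, MT1B and MT4 held 8, 3 and 3 matches, and all 3 genes were listed at 0 in every library. A match describes the letters of the window only.

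**Figure D1:**
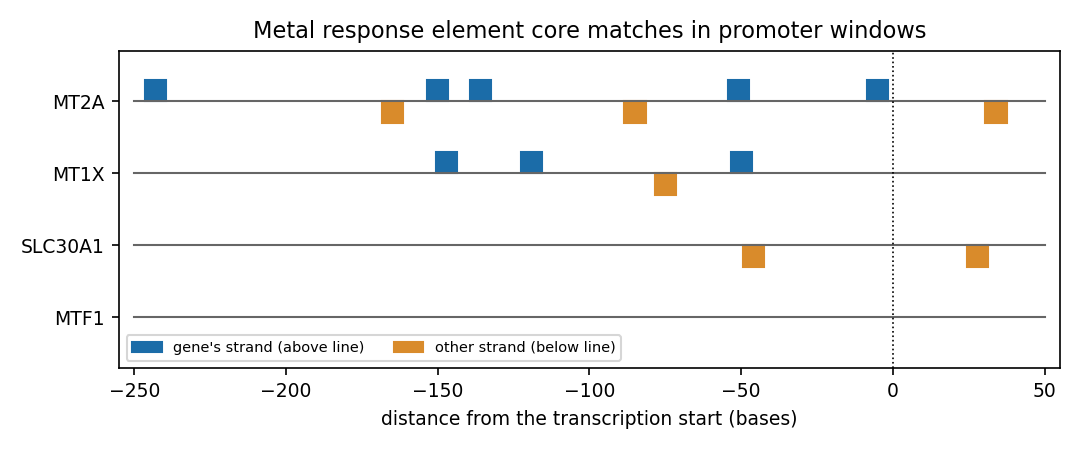
Matches to the metal response element core in the promoter windows of 4 genes, by distance from the transcription start in bases. Boxes above the line lie on the gene's strand and boxes below it on the other; MT2A has 8, MT1X 4, SLC30A1 2 and MTF1 0.

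Expression was deposited as log2 of RPKM plus 1, where RPKM is reads per kilobase of gene and 1000000 reads, so levels can be compared between genes per length. All levels below are RPKM with the log undone, means are ± SD with n = 3, and each log2 change is a difference of log2(RPKM + 1), so changes of weakly expressed genes come out too small. RPKM is a share of a library, so less of a transcript per cell and more of all others cannot be told apart, nor can fewer expressing cells and less RNA per cell. Read totals were not used here; the spacing of low values in short genes puts the depth at about 16600000 to 23500000 reads per library. The line's markers VIM, NEFL, NEFM, PAX2 and LHX1 passed the expression filter, PAX2 through full and repleted libraries only. They moved with the medium: from full to depleted NEFL fell from 31.8 ± 1.71 to 6.53 ± 0.376 RPKM, PAX2 from 3.29 ± 0.315 to 0.60 ± 0.205 and LHX1 from 2.88 ± 0.276 to 1.11 ± 0.215, while VIM rose from 577 ± 6.12 to 665 ± 11.3 (limma adjusted p of 6.55e-09, 8.7e-06, 0.00035 and 2.66e-05). NEFM had 3.90 ± 0.386 and 2.80 ± 0.442 RPKM (limma adjusted p = 0.0709). The fall of PAX2, which had at most 0.81 RPKM in depleted libraries, was partly built in by the filter. The part of such marker shifts in the members' changes was not tested. ALB, PTPRC, HBB, INS, CD3E, MYH6 and SFTPC, markers of other tissues, stayed below 1 RPKM in all 9 libraries. Of the 15774 genes that reached 1 RPKM in 3 or more libraries and were tested, 60.9% passed the test (limma, Benjamini-Hochberg adjusted p under 0.05) in depleted against full medium, 60.7% in depleted against repleted and 0.0317% in repleted against full. A call is therefore common in both comparisons with depleted medium and rare between repleted and full medium. Groups that do not overlap over 3 against 3 libraries were also frequent: 34.3% of genes were lower and 33.4% higher in every depleted than in every full library, and 33.4% were lower and 31.7% higher in every depleted than in every repleted library.

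The members fell into those with measurable RNA and those without. MT2A (ENSG00000125148), MT1X (ENSG00000187193), MT1F (ENSG00000198417), SLC30A1 (ENSG00000170385) and MTF1 (ENSG00000188786) passed the expression filter. MT1E, MT1G and MT1M did not, and were at or near 0 in every medium. In full medium the order of levels was MT2A, MT1X, MT1F, SLC30A1 and MTF1, with no overlap between neighbours over the 3 libraries. The same order held in repleted medium, again with no overlap. In depleted medium SLC30A1 at 6.93 ± 0.276, MT2A at 6.46 ± 0.687 and MTF1 at 6.01 ± 0.891 RPKM overlapped with each other, as did MT1X at 1.78 ± 0.663 and MT1F at 1.44 ± 0.361 below them.

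**Figure D2:**
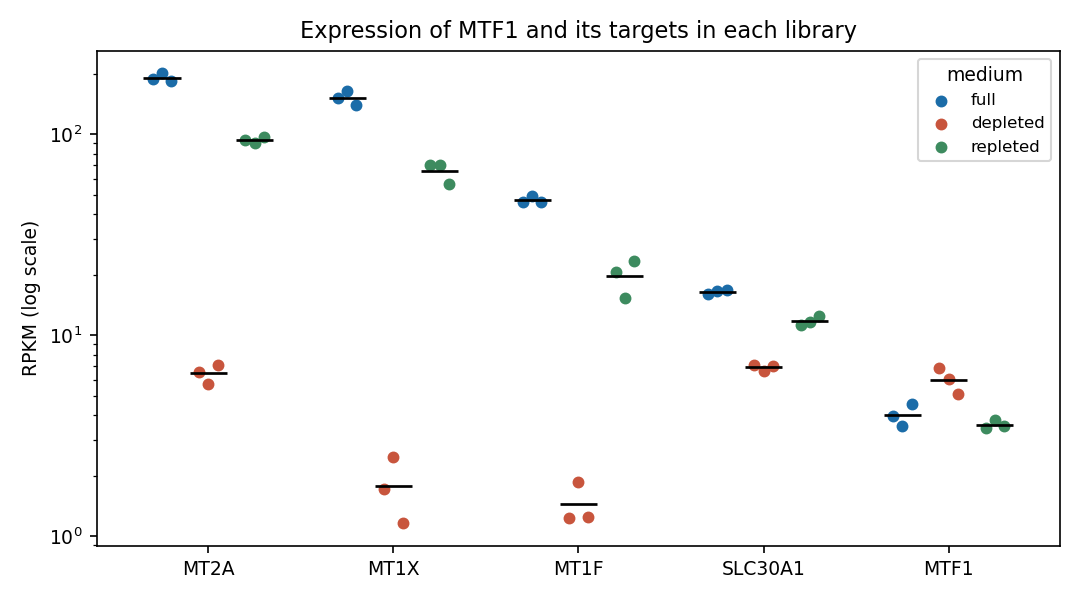
RPKM on a log scale of the 5 members that passed the expression filter, 1 point per library and a bar at the mean of each medium. The metallothioneins drop from between 45.8 and 200.7 RPKM in full medium to between 1.16 and 7.08 in depleted medium, with the repleted libraries between.

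MTF1, the sensor, rose in depleted medium, where its 4 tested targets fell. It had 3.98, 3.54 and 4.52 RPKM in the full libraries, 6.87, 6.06 and 5.09 in the depleted libraries and 3.46, 3.78 and 3.53 in the repleted libraries. All 3 depleted libraries lay above the other 6, whose groups overlapped. The rise over full medium was 1.5-fold (log2 0.48, SE 0.11, limma adjusted p = 0.00495), and the level was 1.67-fold that of repleted medium (log2 0.6, SE 0.11, limma adjusted p = 0.0013). Rises were frequent, since 29.8% of all genes tested rose in depleted against full medium and 29.5% were higher in depleted than in repleted medium. MTF1 ranked 2565th from the largest rise in depleted against full medium. Between repleted and full medium the difference was -0.12 on the log2 scale (95% confidence interval -0.38 to 0.13, limma adjusted p = 0.837), so a difference within that interval was not resolved. RNA levels do not show where the protein was or whether it bound zinc.

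MT2A, the most abundant metallothionein here, had 187.9, 200.7 and 183.6 RPKM in the full libraries. It had 6.57, 5.72 and 7.08 RPKM in the depleted libraries and 93.6, 90.1 and 96.7 in the repleted ones. The 3 groups were fully separated, and within each group the libraries lay close together. In full medium its level was 29.5-fold that of depleted medium (log2 -4.69 for depleted against full, SE 0.07, limma adjusted p = 8.5e-10), the smallest p of all genes tested. It was 14.5-fold higher in repleted than in depleted medium (log2 -3.67 for depleted against repleted, SE 0.07, limma adjusted p = 1.28e-09).

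MT1X had 151.7, 163.3 and 138.9 RPKM in full medium and 1.71, 2.48 and 1.16 in depleted medium. Repleted libraries had 70.4, 70.0 and 56.4 RPKM. All groups were separate, but the depleted libraries spread more widely in relative terms, from an estimated 9, 15 and 22 reads. The log2 change from full to depleted medium was -5.8 (SE 0.16, limma adjusted p = 6.98e-09), rank 1 of 15774 among falls, and that of depleted against repleted was -4.6 (SE 0.16, limma adjusted p = 2.39e-08), rank 2.

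MT1F had 45.8, 49.0 and 45.8 RPKM in full and 1.23, 1.86 and 1.24 in depleted medium, the latter from an estimated 9 to 16 reads per library. In repleted medium it had 20.5, 15.3 and 23.3 RPKM. Repleted replicate 2 was the lowest of its group, and the 3 groups did not overlap. Its log2 change was -4.3 in depleted against full (SE 0.15, limma adjusted p = 2.37e-08, rank 4 among falls) and -3.07 in depleted against repleted medium (SE 0.15, limma adjusted p = 1.58e-07, rank 13). In RPKM its full level was 32.5-fold the depleted one, against 29.5-fold for MT2A, so the order of MT1F and MT2A depends on the scale.

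The other metallothionein members gave almost no signal. MT1M was listed at 0 in all 9 libraries. MT1G had 0.11 RPKM in repleted replicate 3, an estimated 1 read, and was listed at 0 elsewhere. MT1E had 0.16 RPKM in depleted replicate 1 and 0.21 in repleted replicate 2, an estimated 2 reads each, and was listed at 0 in the other 7 libraries, all full libraries included. These genes were not tested, and differences between media were not detectable at this depth.

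SLC30A1, the exporter, fell by 1.14 on the log2 scale in depleted against full medium, with a 95% confidence interval (-1.27 to -1.001) that lay apart from those of MT2A, MT1X and MT1F (-4.84 to -4.54, -6.15 to -5.44 and -4.63 to -3.97). It had 16.0, 16.5 and 16.8 RPKM in full, 7.14, 6.62 and 7.04 in depleted and 11.2, 11.6 and 12.4 in repleted medium. The 3 groups did not overlap, and the repleted libraries lay between the others. The full level was 2.37-fold the depleted one (SE of the log2 change 0.06, limma adjusted p = 3.1e-07, rank 793 among falls). The repleted level was 1.69-fold the depleted one (log2 -0.68 for depleted against repleted, SE 0.06, limma adjusted p = 8.82e-06). Both depleted comparisons thus had 4 tested members lower and 1 higher, against 31.2% of all genes tested called lower in each.

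**Figure D3:**
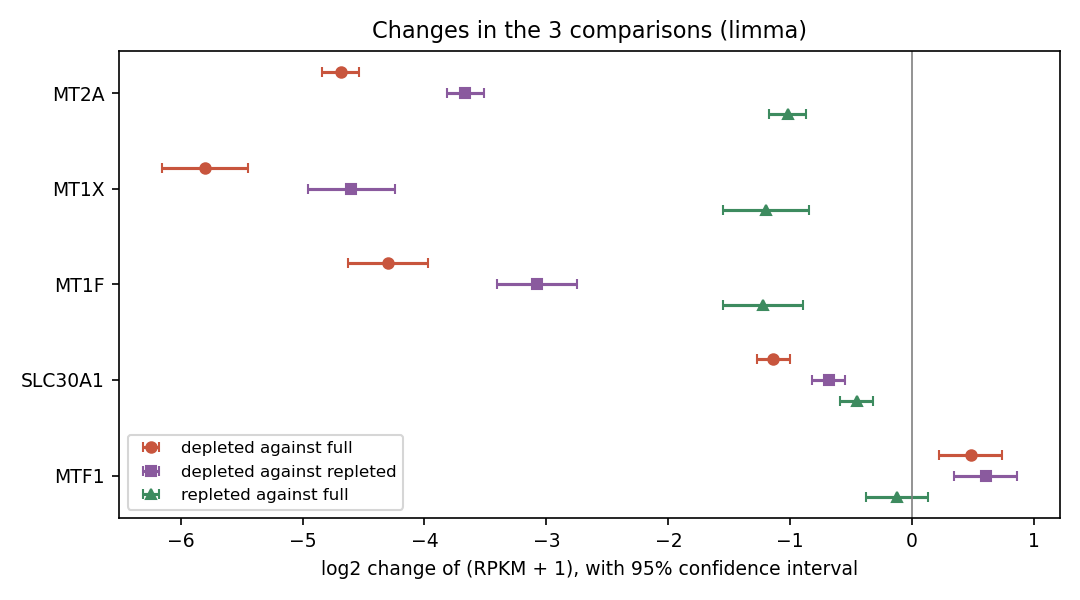
Log2 changes of RPKM + 1 of the 5 members in the 3 comparisons, with 95% confidence intervals from limma; points left of 0 are lower in the first-named medium. The metallothioneins lie between -5.8 and -3.07 in the depleted comparisons, SLC30A1 at -1.14 and -0.68 and MTF1 to the right at 0.48 and 0.6.

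In repleted medium the mean levels of the 4 targets lay between those in depleted and full medium. Repleted levels were 49.0% of the mean full level for MT2A, 43.3% for MT1X, 42.1% for MT1F and 71.4% for SLC30A1. Counted as the share of the full-to-depleted difference in RPKM by which repleted differed from depleted medium (regained share), these were 47.2%, 42.7%, 40.2% and 50.5%. The share compares separate groups at 36 h and does not follow cells from depletion to recovery. The lowest and highest shares when each library was left out in turn were 46.3% and 48.5% for MT2A, 41.0% and 45.8% for MT1X, 36.3% and 45.1% for MT1F and 46.9% and 53.5% for SLC30A1. The 4 targets thus lay close together on this scale although their falls differed widely. On the log2(RPKM + 1) scale the regained shares were 78.2%, 79.3%, 71.5% and 60.0%, so the order of exporter and metallothioneins depends on the scale. For MTF1 the share was 121%, since its repleted mean lay below the full one, and between 108% and 138% with single libraries left out.

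**Figure D4:**
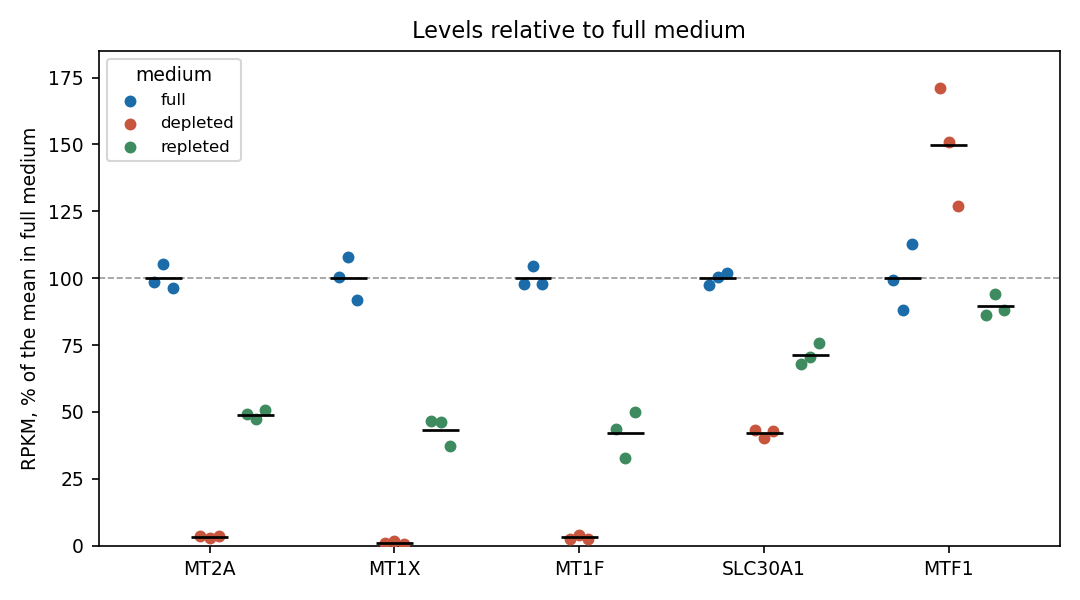
RPKM of each library as a percentage of that gene's mean in full medium (dashed line at 100), with a bar at each mean. Repleted means stand at 49.0% for MT2A, 43.3% for MT1X, 42.1% for MT1F, 71.4% for SLC30A1 and 89.5% for MTF1.

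Repleted against full medium compares cells plated in depleted medium with Zn(II) added back and cells plated in untreated medium. The handling of the medium and any remaining difference in zinc therefore cannot be told apart. Of 15774 genes, 5 passed (0.0317%), all lower in repleted medium, and 2 of them were MT2A and MT1F. The number of genes called depended on the library left out: it was 9 without full replicate 1 and 6 without depleted replicate 1. It was 3 without depleted replicate 3, repleted replicate 1 or repleted replicate 2. It was 2 without full replicate 2 or depleted replicate 2, and 1, MT2A alone, without full replicate 3 or repleted replicate 3. MT2A had a log2 change of -1.02 (SE 0.07, limma adjusted p = 0.00114), with the smallest p of all genes, and held that call in all 17 alternative analyses. MT1F had a log2 change of -1.23 (SE 0.15, limma adjusted p = 0.0382), but lost the call when any 1 of the 9 libraries was left out, depleted ones included, and over 17 alternatives its limma adjusted p ranged from 0.0381 to 0.278. MT1X had a log2 value of -1.2 (95% confidence interval -1.55 to -0.84, limma adjusted p = 0.0596) and missed the threshold. It passed without depleted replicate 2 (limma adjusted p = 0.0356) or depleted replicate 3 (0.0287), and over 17 alternatives its adjusted p ranged from 0.0174 to 0.386. SLC30A1 had a log2 value of -0.45 (95% confidence interval -0.59 to -0.32, limma adjusted p = 0.0596) and did not pass in any of 17 alternatives, with values up to 0.375. In these 4 genes the repleted and full libraries did not overlap, which held for 7% of all genes tested in the downward direction and 5.39% upward.

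The other 3 genes called in repleted against full medium are named after their values were seen. HMOX1, the stress-induced heme oxygenase, had 53.0 ± 2.32 RPKM in full, 33.7 ± 1.46 in depleted and 38.4 ± 0.76 in repleted medium, and its log2 change from full to repleted was -0.45 (limma adjusted p = 0.0282). FTL, the light chain of the iron store ferritin, had 910 ± 18.1, 1003 ± 19.4 and 751 ± 29.5 RPKM in the same order, so it was lower in repleted (log2 -0.28, limma adjusted p = 0.0282) and higher in depleted than in full medium (log2 0.14, limma adjusted p = 0.00353). The pseudogene RP3-365I19.2 was listed at 0 in all repleted libraries and had 2.04 ± 0.509 RPKM in full medium. It passed the expression filter only through the full libraries, so it had to differ, and with a filter on the mean over all libraries 4 genes were called. NQO1, a quinone reductase, tied with SLC30A1 and MT1X just outside the threshold (limma adjusted p = 0.0596), with 17.9 ± 0.784, 7.69 ± 0.637 and 12.1 ± 0.408 RPKM.

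Ratios between members show whether they moved by one common factor. Within a library the ratio of MT1X to MT2A was 0.807, 0.814 and 0.757 in full, 0.26, 0.434 and 0.164 in depleted and 0.752, 0.778 and 0.583 in repleted medium. All depleted ratios lay below all others, a log2 difference of -1.58 from full and -1.4 from repleted medium, each with an exact two-sided permutation p of 0.1 (0.15 adjusted over 9 ratio comparisons). That is the smallest p that 3 against 3 libraries allow, so no ratio could pass. The ratio of MT1F to MT2A was 0.246 ± 0.00335 in full, 0.229 ± 0.0834 in depleted and 0.21 ± 0.0365 in repleted medium. The depleted libraries overlapped both other groups (exact permutation p of 0.6 and 0.8). Every repleted ratio lay below every full ratio, a log2 difference of -0.24 (exact permutation p of 0.1, the smallest possible, 0.15 adjusted over 9). With a pseudocount of 1 this difference was -0.21 (exact permutation p of 0.3), so the separation of repleted and full libraries was not kept. The direction of the depleted comparisons turned with a pseudocount of 1 (log2 difference from full 0.39 in place of -0.16) and without depleted replicate 2, depleted replicate 3 or repleted replicate 2 (depleted against repleted -0.20, depleted against full 0.0063 and depleted against repleted -0.06).

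Of the summed RPKM of MT2A, MT1X and MT1F, MT1X held 38.9% ± 1.01 in full, 18.3% ± 6.21 in depleted and 36.7% ± 4.19 in repleted medium, and MT2A held 49.1% ± 0.677, 66.9% ± 9.12 and 52.3% ± 2.21. The sum itself was 389 ± 22.5 RPKM in full, 9.68 ± 0.327 in depleted and 179 ± 4.94 in repleted medium. Metallothionein transcripts are alike in sequence and how reads matching several of them were assigned is not given in the sources used here; its part in these shares was not tested. MT2A relative to SLC30A1 fell from 11.6 ± 0.598 in full to 0.93 ± 0.0713 in depleted medium and was 7.97 ± 0.346 in repleted medium. The 3 groups were separate in this ratio (exact permutation p of 0.1 in each comparison, the smallest possible).

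**Figure D5:**
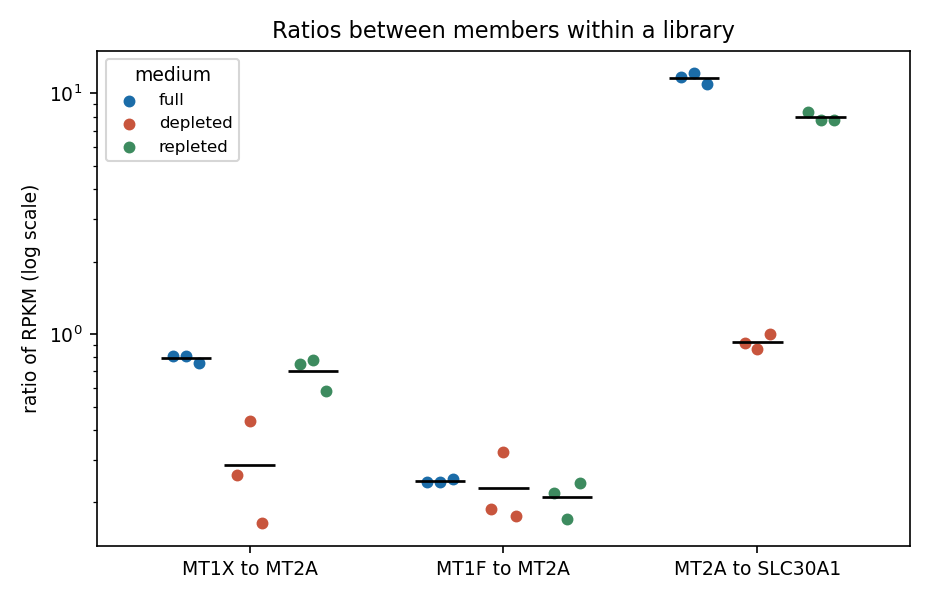
Ratios of RPKM within each library on a log scale, with a bar at each mean. MT1X to MT2A lies between 0.164 and 0.434 in depleted libraries and at or above 0.583 elsewhere, MT1F to MT2A overlaps between depleted libraries and the others and is lower in every repleted than in every full library, and MT2A to SLC30A1 drops from 11.6 in full to 0.93 in depleted medium.

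The rest of the metallothionein family was mostly listed at or near 0. Since the assignment of reads shared between family members is not known, a listed 0 need not mean absence of RNA. Of 14 further family members found in the table, 9 were listed at 0 in all libraries and 1 reached 1 RPKM. That one was MT1P1, a pseudogene, with 0.96, 1.1 and 2.18 RPKM in full and 1.14, 1.07 and 0 in repleted medium, and listed at 0 in all depleted libraries. MT3, the metallothionein known from brain, had at most 0.14 RPKM, and MT1A and MT4 were listed at 0 throughout. In the RefSeq order along the chromosome, MT2A stands at place 3, MT1F at 12 and MT1X at 16 of 16 cluster genes, so the expressed genes were not adjacent, and genes listed at 0 throughout (MT1L, MT1M, MT1A, MT1B and MT1H among them) lay between.

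The protein-coding genes that flank the cluster, picked by position after the member values were known, gave 2 rises and 2 falls among 5 tested in depleted against full medium, where 29.8% of all genes tested rose and 31.2% fell. Before the cluster, BBS2, a gene of ciliary transport, rose from 21.2 ± 2.58 to 32.4 ± 2.6 RPKM (limma adjusted p = 0.00172). OGFOD1, a ribosomal protein hydroxylase, fell from 45.6 ± 1.53 to 40.6 ± 3.28 RPKM (limma adjusted p = 0.0278), and NUDT21, an mRNA 3′ end processing factor, had 64.9 ± 5.52 and 68.8 ± 6.33 RPKM (limma adjusted p = 0.37). After it, the nucleoporin NUP93 fell from 43.7 ± 1.94 to 24.5 ± 0.48 RPKM (limma adjusted p = 2.87e-07). HERPUD1, a gene of protein quality control in the endoplasmic reticulum, rose from 20.9 ± 3.16 to 35.4 ± 3.48 RPKM (limma adjusted p = 0.000221). SLC12A3 had at most 0.14 RPKM in any library and was not tested. In repleted medium BBS2, NUP93 and HERPUD1 stood at 19.4 ± 3.14, 45.3 ± 0.547 and 20.0 ± 0.617 RPKM, each group overlapping the full libraries.

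Other genes reported as MTF1 targets in human or mouse cells were called about as often as genes at large. Of 7 tested, 1 rose and 3 fell in depleted against full medium, where 60.9% of all genes tested were called, with a median log2 change of -0.08 against 0.00 over all genes tested. CSRP1, a LIM domain protein of the cytoskeleton, fell from 25.9 ± 1.19 to 3.58 ± 0.78 RPKM (limma adjusted p = 1.44e-07) and had 24.3 ± 2.53 in repleted medium. NDRG1, a stress-responsive gene, fell from 23.0 ± 0.946 to 10.4 ± 0.1 RPKM (limma adjusted p = 1.35e-07) and had 23.5 ± 0.626 in repleted medium. SLC30A2, another zinc transporter, fell from 1.66 ± 0.291 to 0.09 ± 0.07 RPKM (limma adjusted p = 4.72e-05) and had 1.03 ± 0.147 in repleted medium. It passed the expression filter only through full and repleted libraries, with at most 0.17 RPKM in depleted ones. Its fall, counted among the 3, was thus partly built in by the filter. SLC39A10, an importer that MTF1 is known to repress, was the one that rose, from 17.2 ± 0.645 to 49.9 ± 1.22 RPKM (limma adjusted p = 1.55e-08), and had 14.9 ± 0.389 in repleted medium. The growth factor PGF had 7.8 ± 1.09 in full and 9.46 ± 0.611 RPKM in depleted medium (limma adjusted p = 0.0519) and was higher in depleted than in repleted medium (limma adjusted p = 0.0152). The selenoprotein gene SEPW1 and GCLC, of glutathione synthesis, did not pass (limma adjusted p = 0.0629 and 0.475), and HAMP was too low to test. Of the 8 tested SLC30 genes other than SLC30A1, 2 rose and 4 fell, SLC30A2 among the latter. Of 11 tested SLC39 importers 7 rose and 2 fell. Over all genes tested 29.8% rose and 31.2% fell.

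Of 4 genes for factors that work with MTF1 or export it from the nucleus, 3 rose in depleted against full medium and 2 were higher in depleted than in repleted medium. SP1, a transcription factor that binds GC-rich promoters and is found with MTF1 in activating complexes, rose from 19.9 ± 1.83 to 47.6 ± 0.937 RPKM with depletion and had 20.9 ± 0.876 in repleted medium (log2 1.22 for depleted against full, SE 0.07, limma adjusted p = 3.11e-07). The coactivator EP300 changed by 0.35 in log2 from full to depleted medium (limma adjusted p = 0.00642) and the nuclear exporter XPO1 by 0.2 (0.000393), while the EP300 relative CREBBP had a value of 0.08 (0.211). EP300 did not pass in depleted against repleted medium (0.0957). In depleted against full medium 29.8% of all genes tested rose, and 29.5% were higher in depleted than in repleted medium.

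Of 8 tested genes induced by toxic metal or protein damage, 5 rose and 3 fell in depleted against full medium, where 29.8% of all genes tested rose and 31.2% fell. Their median log2 change was 0.52, against 0.00 over all genes tested. SLC7A11, the cystine importer, rose from 3.77 ± 0.0874 to 19.9 ± 1.75 RPKM and had 3.68 ± 0.267 in repleted medium (log2 change from full to depleted 2.13, limma adjusted p = 4.68e-08). TXNRD1, a thioredoxin reductase, rose from 104 ± 2.73 to 172 ± 0.879 RPKM, and GCLM, of glutathione synthesis, from 16.5 ± 0.13 to 20.9 ± 2.32. SRXN1, which repairs oxidised peroxiredoxins, rose from 14.9 ± 0.337 to 39.5 ± 0.942 RPKM, and the chaperone DNAJB1 from 59.9 ± 1.89 to 151 ± 2.98. HMOX1 and the near-identical heat shock genes HSPA1A and HSPA1B fell, the last from 2636 ± 42.5 to 1739 ± 57.0 RPKM, with reads that may be shared between that pair. In repleted medium SRXN1 had 13.2 ± 0.819, DNAJB1 57.4 ± 1.68 and HSPA1B 2635 ± 44.3 RPKM.

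The genes whose pattern was most like that of the members were ranked by Pearson's r of log2(RPKM + 1) over the 9 libraries, among the 10377 tested genes whose mean reached 5 RPKM. The libraries fall into the 3 media and a value near 1 is common, so r is a description. For the mean of MT2A, MT1X and MT1F the nearest were TUBA1A (r = 0.998), GSTP1 (0.996), RBMS2 (0.996), CPOX (0.996) and DNAJC12 (0.995), and 1313 genes reached 0.95. Their changes were far smaller: the tubulin gene TUBA1A had 232 ± 2.38 RPKM in full, 159 ± 3.28 in depleted and 213 ± 3.88 in repleted medium. For SLC30A1 the nearest were ACTG1 (0.992), SCFD2 (0.990), NQO1 (0.988), GALNT7 (0.986) and KRT18 (0.984), and 131 genes reached 0.95. For MTF1 they were TMEM199 (0.981), GPN2 (0.975), MCM8 (0.971), TMBIM6 (0.971) and UGDH (0.969), with 29 genes at 0.95 or above. Ranked by Spearman's rho in place of Pearson's r, 0 of the 5 genes were shared for each of the 3 patterns, so these names depend on the measure. Between members r was 0.994 for MT2A and MT1X, 0.992 for MT2A and MT1F, 0.977 for MT2A and SLC30A1 and -0.852 for MT2A and MTF1.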

How the data were processed

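Polyadenylated RNA of 9 libraries was sequenced from single ends after TruSeq preparation, per the labels' protocols. The authors deposited log2 of RPKM plus 1 per Ensembl gene, per the file headers, 1 column per library, with gene lengths beside them, and 0 columns of unknown sample. The submitters' processing notes list, with no role stated, bedtools, BWA 0.7.12-r1039, Bowtie 1.0.1 and RSEM 1.2.6, and the builds GRCh37 and hg19. The log was undone and values rounded to 0.01 RPKM; 20320 blank rows were dropped.

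limma 3.58.1 (R 4.3.3) was fitted to log2(RPKM + 1) with a variance trend, 1 mean per medium over all 9 libraries and no block, on the 15774 genes that reached 1 RPKM in 3 or more libraries. The p-values were adjusted by Benjamini-Hochberg over all genes of a comparison, threshold 0.05, and the model was tested on simulated data. Ratios used exact permutation tests (scipy 1.17.1). Depth was estimated from values under 1 RPKM in genes 100 to 500 nucleotides long (effective length). The read total was chosen that put the largest share of these values at 1, 2 or 3 whole reads (within 0.1 read). That share was 48.1% to 54.0% per library, so the depths and estimated reads are approximate. Named genes are all members, the tested genes of lists on further targets, partners and metal stress, and the 5 most similar patterns; the members and lists were chosen with earlier results of these data known. Gene coordinates on hg19 were not used here; promoters are from RefSeq. A planned count of genes lowered in steps over the media is not given, since its comparisons share libraries. Alternatives were a pseudocount of 0.1, other filters and scalings, only the 6 libraries compared, a replicate block, a threshold of 0.01 and each library left out. Figures used matplotlib 3.10.9.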

Additional observations from a re-analysis of the deposited data

How the results depend on the processing

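In both depleted comparisons the calls of all 5 tested members kept their direction and side of the threshold in each of 17 alternatives. Depleted against full medium ranged in log2 from -4.87 to -4.59 for MT2A, from -6.39 to -5.63 for MT1X, from -4.95 to -4.24 for MT1F, from -1.23 to -1.07 for SLC30A1 and from 0.39 to 0.6 for MTF1. Repleted against full medium was less stable. Members called there were 2, with 1 at a pseudocount of 0.1, without a filter and at a threshold of 0.01, 3 with median centring, where MT1X passed (limma adjusted p = 0.0469), and 1 to 2 with a library left out. With only the 6 libraries compared they were again 2, with MT1X called (0.0278) and MT1F not (0.0879). All genes called there were 5, with 3 at a pseudocount of 0.1, 9 without a filter, 1 at a threshold of 0.01, 2 with only 6 libraries, 2 with the replicate block, and 1 to 9 with a library left out (9 without full replicate 1, 1 without full replicate 3 or repleted replicate 3). The residuals of same-numbered libraries correlated between -0.014 and 0.073, and those of other libraries between -0.061 and 0.042. Pairing of samples by number was thus neither shown nor excluded. With the replicate number as a block, 9511 genes in place of 9611 were called in depleted against full medium. In depleted against repleted medium 9472 were called in place of 9574. In repleted against full medium MT1X passed (limma adjusted p = 0.0174) and MT1F did not (0.18). No other member's call changed.

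The ratio of MT1F to MT2A turned direction in depleted against full medium with a pseudocount of 1 (0.39) and, over libraries left out, lay between -0.44 and 0.0063; in depleted against repleted medium it lay between -0.20 and 0.25. The regained share moved on the log2 scale to 78.2% for MT2A, 79.3% for MT1X, 71.5% for MT1F and 60.0% for SLC30A1, and for MTF1 lay between 108% and 138% over libraries left out. Without the bases after the start, matches fell from 8 to 7 in MT2A and from 2 to 1 in SLC30A1. The cause of these shifts was not tested, other than that leaving out libraries leaves fewer samples. MT1X and MT1F rest on few reads in depleted libraries, an estimated 9 to 22 per library, which limits the precision of their ratios there.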
